A study of Mus musculus with 20 samples.

Results

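Gzma, Gzmb, Gzmk, Gzmm, Prf1, Nkg7, Ctsw, Fasl, Ifng and Klrg1 are genes that killer lymphocytes use or carry, and they are described here as a named list of 10 genes out of the 31053 in each count matrix. The list was given by name and not by any measured value. Each gene was followed in 3 kinds of cell that were picked by a few marker genes, and never by the 10 genes themselves. Cd8 T cells had at least 2 molecules of Cd3d, Cd3e and Cd3g together, at most 1 of Cd79a and Cd79b, at least 1 of Cd8a and Cd8b1, and none of Cd4. Cd4 T cells were picked by the mirror of that rule, with at least 1 molecule of Cd4 and none of Cd8a or Cd8b1. Natural killer (NK) cells had at least 2 molecules of Ncr1 and Klrb1c together and none of the 3 Cd3 genes.

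Cytotoxic T cells and NK cells store granules that they empty onto a target cell. Perforin (Prf1) opens the target membrane, and the granzymes (Gzma, Gzmb, Gzmk, Gzmm) are serine proteases that enter through it. Nkg7 is a granule membrane protein needed for efficient release, and cathepsin W (Ctsw) is a cysteine protease found mainly in Cd8 T and NK cells. Killing can also run through Fas ligand (Fasl), a surface protein that engages the death receptor Fas, while interferon gamma (Ifng) is a secreted cytokine that activates macrophages and antigen presentation. Klrg1 is an inhibitory receptor found on effector T cells and mature NK cells. In mice with a leukaemia of B cells, these genes are commonly used to follow the state of the T cells that surround the malignant cells.

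Single-cell RNA-sequencing was carried out on unselected live cells of 20 tissues from 13 mice, all of strain C57BL/6N, with 7 mice giving both tissues. The groups were 5 Eµ-PRMT5 spleens (transgene Eµ-hPRMT5), 4 Eµ-TCL1 spleens (Eµ-hTCL1), 4 Eµ-PRMT5/TCL1 spleens (Eµ-hPRMT5/hTCL1) and, as lymph nodes, 3 from Eµ-TCL1 and 4 from Eµ-PRMT5/TCL1 mice. Both transgenes are human cDNAs driven in B cells by an immunoglobulin heavy chain promoter and enhancer, so the T and NK cells are not the cells that the promoter drives. Double transgenic animals came from crossing the 2 lines, tissues were taken when mice met removal criteria, and no library came from a mouse without a transgene. The ages of the mice are not given in the labels, and the sexes were mixed. The label of Eµ-PRMT5 spleen 3 carries the name of a founder mouse of that line, and for the other Eµ-PRMT5 mice no founder is named. The labels name separate mice, so that the spread between libraries of a group is a spread between animals.

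Of 84231 cells kept after calling and doublet removal (688 to 7631 per library), 23074 were Cd8 T cells, 2252 were Cd4 T cells and 127 were NK cells, that is 27.4%, 2.67% and 0.151% of the cells. Libraries held 9348094 to 72440894 unique molecular identifiers (UMIs, 1 per captured RNA molecule). All 20 libraries held at least 20 Cd8 T cells (30 to 4214), 14 held at least 20 Cd4 T cells and 3 held at least 20 NK cells, and these are the libraries compared. A level below is in counts per 1000000 UMIs (CPM) over the summed cells of 1 kind in 1 library. UMIs are counted once per RNA at its 3′ end, so no level was divided by gene length, and levels are compared between libraries and cell kinds rather than between genes. A share is the percent of cells with at least 1 UMI of the gene after every cell was thinned to 1000 UMIs, with exact Clopper-Pearson intervals of 95% that cover counting error only. Cells of 1 library share its free RNA. Pairs of libraries shared 0 to 68 barcodes, a median of 0.995 times the number that random draws from the barcode list give.

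The names of the 3 kinds were checked against further markers. Trac, the T cell receptor alpha constant gene, which was not used to choose cells, stood at 68.4 to 174 CPM in the Cd8 T cells of the 20 libraries, at 90.1 to 260.3 CPM in the Cd4 T cells of 14 and at 6.82 to 8.68 CPM in the 3 NK samples. The beta constant genes Trbc1 and Trbc2, also not used, did not separate the kinds. They stood at 81.8 to 219 and 68.2 to 234 CPM in NK samples. In Cd8 T cells they stood at 0.310 to 342 and 163 to 1289 CPM, and in Cd4 T cells at 27.3 to 361 and 217 to 943 CPM. Tyrobp, an NK and myeloid adaptor that was not used either, stood at 1041 to 2434 CPM in the NK samples. The summed level of the 7 NK markers was 3714 to 5419 CPM in NK samples, 15.8 to 647 CPM in Cd8 T and 0 to 1447 CPM in Cd4 T cells. The sum includes Ncr1 and Klrb1c, which chose the NK cells, so its height in them was partly fixed by that choice. In Cd8 T and Cd4 T cells Ncr1, an NK receptor, gave at most 1.03 and 2.79 CPM. Tyrobp reached 294 and 742 CPM and Fcer1g 345 and 688 CPM, while no other of the 7 passed 64.5 and 75.6 CPM. In B cells the same sum was 33.2 to 889 CPM, so it is not particular to NK cells. The part of NK RNA in the T cell levels was not tested. The summed level of the monocyte and macrophage marker list was 0 in 2 NK samples and 4158 CPM in the remaining one, nearly all of it Lyz2, and the part of such cells in the NK levels was not tested. B cells, which should lack all 10 genes, gave the background. They had at least 2 molecules of Cd79a and Cd79b together and none of the 3 Cd3 genes, Ncr1 or Klrb1c. B cells with a free T or NK marker molecule were thus left out, and this background may be too low. The median share among B cells over the 20 libraries was at most 0.0761%, for Nkg7, and no gene passed 0.855% of B cells in any library. Median depth was 7586 UMIs per B cell against 5196.5 per Cd8 T cell, 4740.5 per Cd4 T cell and 3795 per NK cell.

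The genes are annotated as protein coding in the mouse genome (GRCm38, GENCODE vM21). Gzma (chr13:113093825-113100981) and Gzmk (chr13:113171608-113225908) lie on the same strand of chromosome 13, 70626 bases apart with 3 annotated genes between them. Gzmb lies at chr14:56258838-56262260, Nkg7 at chr7:43437073-43438249, Ctsw at chr19:5465043-5468507, Fasl at chr1:161780689-161788495 and Klrg1 at chr6:122270596-122282882. Chromosome 10 holds Gzmm (chr10:79689020-79695261), Prf1 (chr10:61297833-61304680) and Ifng (chr10:118441046-118445892). Gzmk overlaps Esm1 and Ctsw overlaps Fibp on the opposite strand, and Ifng overlaps an unclassified transcript on its own strand, so reads in those stretches are less certain.

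The promoters of Nkg7, Gzmb and Gzmk are shown because these are the 3 genes that differed in the Cd4 T cells of the spleen genotypes described below. Each runs from 250 bases before to 50 bases after the RefSeq start (GRCm38.p6), 5′ to 3′ on the strand of the gene, at chr7:43436888-43437187 (plus), chr14:56262285-56262584 (minus) and chr13:113180916-113181215 (minus). Capitals mark matches on either strand to RUNX (TGTGGT), T-box (TCACAC) and AP-1 (TGANTCA) motifs.
Nkg7: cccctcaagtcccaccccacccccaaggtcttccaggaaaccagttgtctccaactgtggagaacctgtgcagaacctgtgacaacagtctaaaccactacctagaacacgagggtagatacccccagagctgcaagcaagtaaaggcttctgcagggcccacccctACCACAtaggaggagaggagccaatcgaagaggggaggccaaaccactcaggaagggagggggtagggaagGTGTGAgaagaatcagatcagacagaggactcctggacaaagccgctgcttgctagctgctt
Gzmb: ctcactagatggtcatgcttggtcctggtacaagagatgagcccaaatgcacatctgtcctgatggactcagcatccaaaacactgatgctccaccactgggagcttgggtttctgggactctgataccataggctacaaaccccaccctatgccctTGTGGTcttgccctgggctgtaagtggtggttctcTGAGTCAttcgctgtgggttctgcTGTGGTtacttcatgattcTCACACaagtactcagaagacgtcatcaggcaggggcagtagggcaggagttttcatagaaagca
Gzmk: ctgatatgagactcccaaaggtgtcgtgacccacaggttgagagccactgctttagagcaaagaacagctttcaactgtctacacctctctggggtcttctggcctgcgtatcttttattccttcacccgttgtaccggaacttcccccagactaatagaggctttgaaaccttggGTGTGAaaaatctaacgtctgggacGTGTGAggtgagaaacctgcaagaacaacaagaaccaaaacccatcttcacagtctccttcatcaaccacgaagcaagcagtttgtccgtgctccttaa
The Nkg7 window held 1 RUNX and 1 T-box match, the Gzmb window 2 RUNX, 1 T-box and 1 AP-1 match, and the Gzmk window 2 T-box matches. Of 32851 mouse promoters of the same length, 16.8% held the RUNX letters, 14.5% the T-box letters and 7.81% the AP-1 letters. Among the other genes, Gzma and Prf1 each had 1 RUNX match, and Fasl and Ifng had none of the 3 motifs. Gzmm had 2 windows, 1 with 1 RUNX match and 1 with 2 T-box matches. A match is a stretch of letters and is not a measured binding site.

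Where in the tissue the transcripts were found differed from gene to gene. Over the 84231 cells, Cd8 T cells held 86.6% of all Gzmm UMIs, 78.5% of Ctsw, 65.4% of Fasl and 63.4% of Prf1. These sums give large libraries more weight. Eµ-PRMT5 spleen 5 alone held 4214 of the 23074 Cd8 T cells and had the highest Gzmm level in them. Cd4 T cells, the smaller population, held 36.1% of Gzmk and 26.6% of Gzma but 0.214% of Gzmm. The Cd4 T part of Gzmk was 11.2% in Eµ-PRMT5 spleens and 26 to 49.5% in the other 4 groups. That of Gzma was 46.8% in Eµ-TCL1 spleens and 47.2% in their nodes, where 1 mouse had a high level as described below, and 0.751 to 2.32% in the other 3 groups. Together the 3 kinds held between 54.8% (Klrg1) and 86.9% (Gzmm) of the UMIs of a gene. T cells in which neither Cd4 nor Cd8 was detected held a further 16.9% of Gzmk and 11.1% of Gzma, as the plot of UMIs by class shows.

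**Figure D1:**
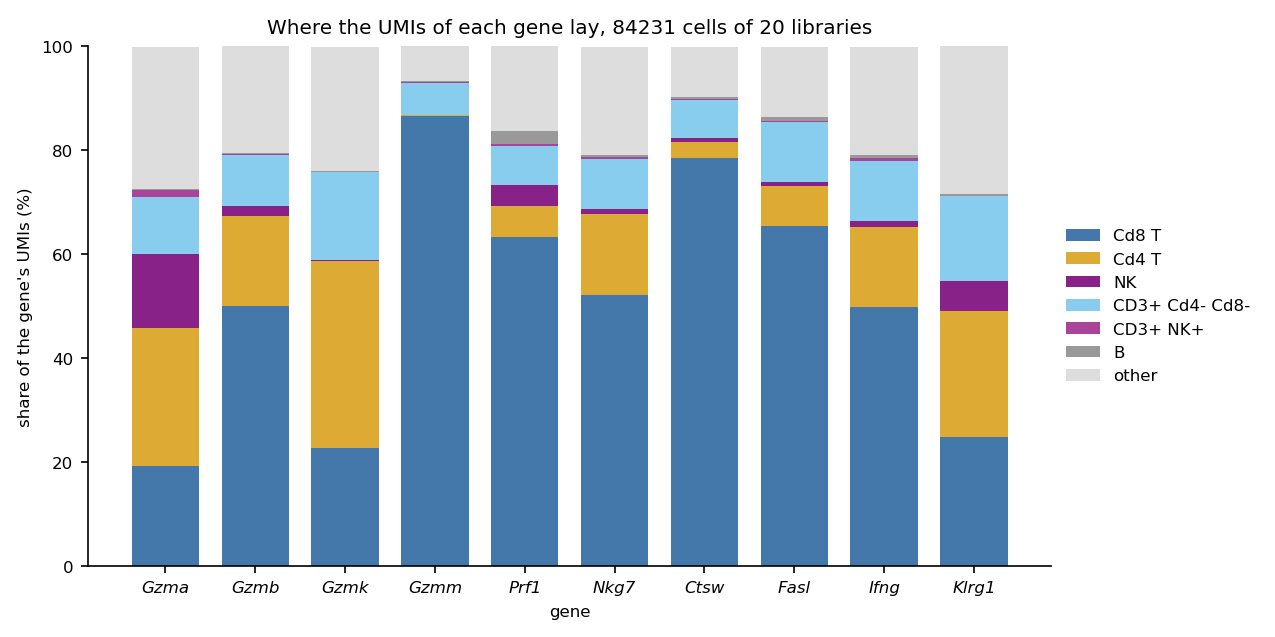
Each bar is a gene (horizontal axis) and stacks the share of its UMIs (vertical axis, 0 to 100%) by the class of cell that held them, over the 84231 kept cells of 20 libraries. Cd8 T cells held 86.6% of Gzmm and 24.8% of Klrg1 UMIs, and the widest Cd4 T part, 36.1%, was that of Gzmk.

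NK cells of Eµ-PRMT5 spleens carried more Gzma, Gzmb, Prf1 and Nkg7 RNA than either kind of T cell in the same spleens. The comparison used the 3 Eµ-PRMT5 spleens (numbers 1, 2 and 3) in which all 3 kinds had at least 20 cells, with the library as a block, so that cell kinds were compared within a mouse. Gzma stood at 1786, 3526 and 1796 CPM in NK cells, at 18, 11.9 and 5.16 CPM in Cd8 T cells and at 5.76, 0 and 9.77 CPM in Cd4 T cells of the same spleens. Every NK value was above every T cell value. The Gzma share was 50% of 20 NK cells (95% interval 27.2 to 72.8%), 71.9% of 32 (53.3 to 86.3%) and 44.0% of 25 (24.4 to 65.1%). On the log2 scale Gzma was 7.41 ± 0.33 higher (± SE) in NK than in Cd8 T cells (edgeR's quasi-likelihood test, adjusted p = 4.53e-07) and 8.26 higher than in Cd4 T cells (adjusted p = 5.11e-07).

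In NK against Cd8 T cells 7 of the 10 genes passed an adjusted p of 0.05, where 7.78% of the 7736 genes tested did so, and the median difference was 2.15 over the 10 genes and -0.03 over all genes tested. Higher in NK cells besides Gzma were Klrg1 (4.00 on the log2 scale), Gzmb (3.56), Prf1 (2.68), Ifng (2.49) and Nkg7 (1.80). Perforin showed this in every spleen, with 177, 403 and 174 CPM in NK cells against 24, 38.2 and 29.1 CPM in Cd8 T cells. Gzmm was the gene that went the other way, by -2.75 (adjusted p = 0.00569), with 3, 2 and 0 UMIs in the 3 NK samples and 814 in the Cd8 T cells of the same spleens, a ratio of summed levels of 4.89 (exact counting interval 2.09 to 15.1). Against Cd4 T cells 7 of the 8 genes with enough counts passed, where 12.1% of 3396 genes did. Gzmb (5.97), Prf1 (4.45), Nkg7 (3.91), Ctsw (2.94) and Fasl (1.48) were higher in NK cells, and Gzmk was lower by -2.14 (adjusted p = 0.00730). The Gzmk call was lost without Eµ-PRMT5 spleen 3 (-1.97, adjusted p = 0.0601) and without the library as a block (-1.87, adjusted p = 0.184), and that of Gzmm against Cd8 T cells without Eµ-PRMT5 spleen 2 (-2.63, adjusted p = 0.0543).

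Genes of related function were tested in the same comparisons. In NK against Cd8 T cells 3 of 6 tested chemokine and ligand genes were higher, Ccl3 (5.46), Ccl4 (2.82) and Ccl5 (0.52), which attract other leukocytes, and 4 of 6 effector transcription factors were higher, Zeb2 (2.54), Id2 (1.88), Bhlhe40 (1.68) and Runx3 (1.54). Of 10 granule and release genes 2 were higher, Serpinb9 (1.96), an inhibitor of granzyme B, and Ctsc (1.31), the protease that activates granzymes. Of 7 genes of naive and quiescent T cells 6 were lower, among them Il7r (-2.65), the interleukin 7 receptor, Lef1 (-2.51), Tcf7 (-1.58) and Klf2 (-1.30). Of 4 tested inhibitory receptor genes Tigit (0.78) was higher and Pdcd1, at 0 CPM in all 3 NK samples, was lower.

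Against Cd4 T cells 2 of 7 granule genes were higher, Serpinb9 (2.93) and Ctsc (1.57), as were 3 of 3 chemokines, Ccl4 (4.58), Xcl1 (3.55) and Ccl5 (3.27). Of 6 transcription factors 5 were higher, among them Eomes (2.33), Zeb2 (1.46), Runx3 (1.18) and Id2 (1.04). Of 7 naive and quiescence genes 3 were lower and 1 higher, the lower ones being S1pr1 (-2.88), Ccr7 (-2.40) and Il7r (-1.82). Of 5 inhibitory receptor genes and Tox 4 were lower, namely Pdcd1 and Ctla4, both at 0 CPM in all 3 NK samples, Lag3, at 0, 0 and 8.68 CPM, and Tox (-2.54).

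**Figure D2:**
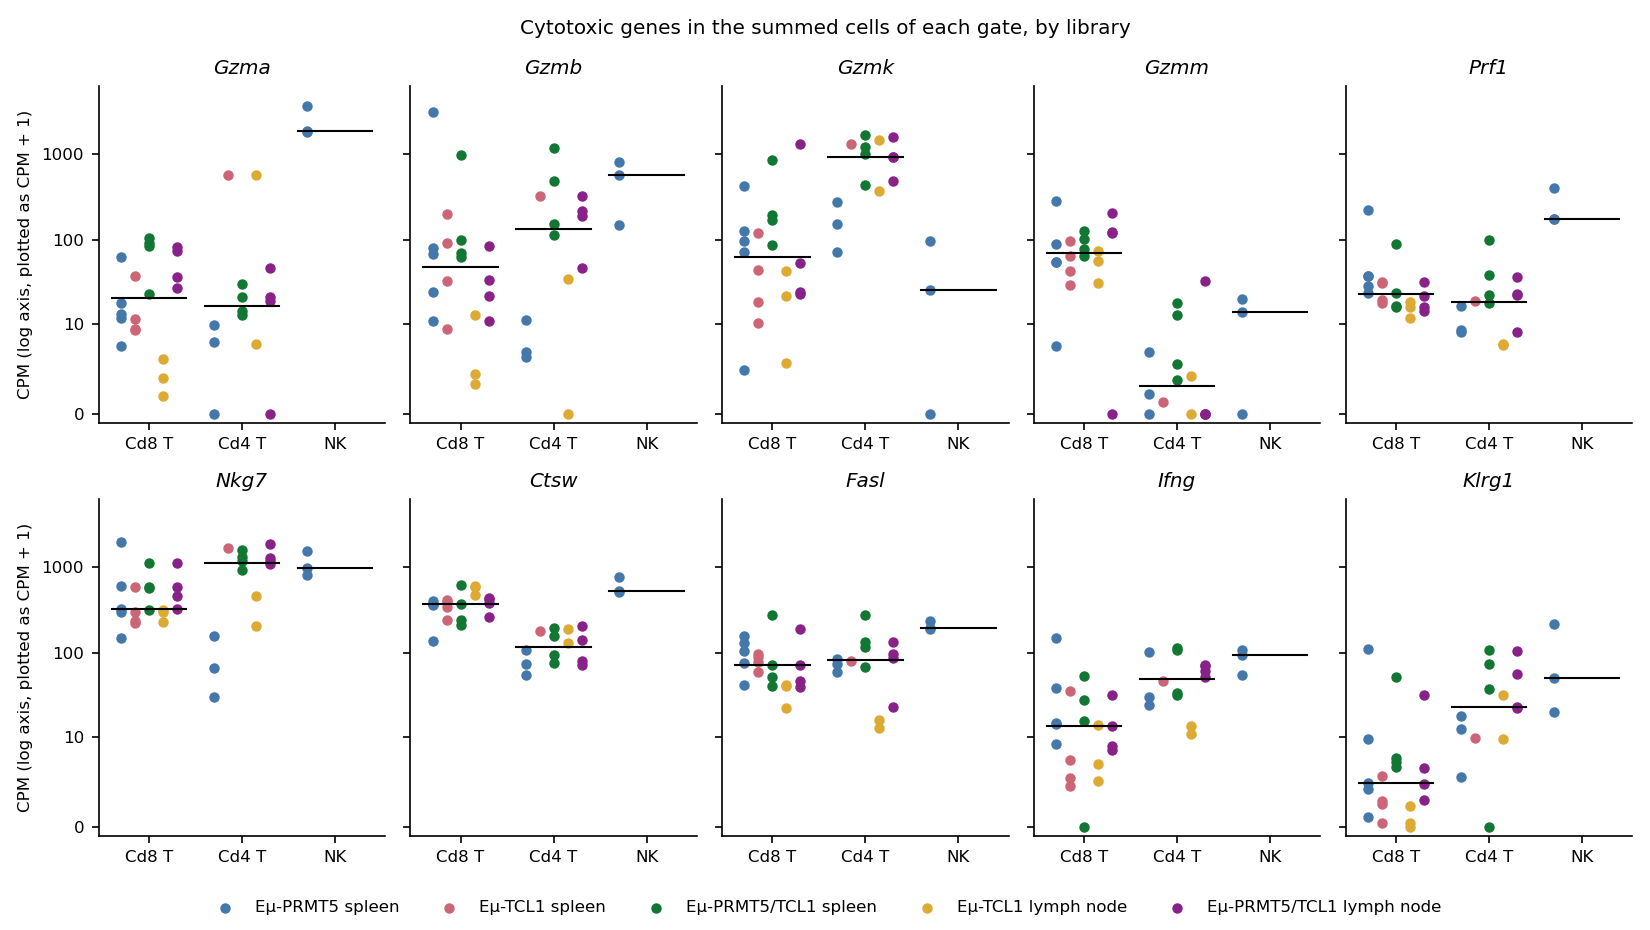
Each of the 10 panels is a gene, with the kind of cell on the horizontal axis and CPM + 1 on a log axis, and each point is a library with at least 20 cells of that kind (20 for Cd8 T, 14 for Cd4 T, 3 for NK cells), coloured by group, with a bar at the median. NK samples sit at 1786 to 3526 CPM for Gzma, above every Cd8 T library, and Gzmm reaches 286 CPM in Cd8 T cells against at most 20.4 CPM in NK cells.

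Cd8 T cells differed from Cd4 T cells in a gene by gene manner, and for Gzmb and Nkg7 the order was not the same in all spleens. Gzmm stood at 55.9, 89.3 and 55.1 CPM in the Cd8 T cells of the 3 Eµ-PRMT5 spleens and at 0.719, 4.20 and 0 CPM in their Cd4 T cells. Ctsw stood at 363, 370.1 and 374 CPM against 74.8, 109 and 55.8 CPM. Both genes were thus higher in Cd8 T cells in each of the 3 spleens. Of the 10 genes 6 were higher in Cd8 T cells and 0 were lower, where 18.5% of 8811 genes passed in either direction. They were Gzmm (6.30 ± 0.41, adjusted p = 5.5e-07), Ctsw (2.60 ± 0.17, adjusted p = 5.5e-07), Gzmb (2.19 ± 0.38, adjusted p = 0.00104), Nkg7 (2.18 ± 0.22, adjusted p = 1.62e-05), Prf1 (1.86 ± 0.27, adjusted p = 0.000256) and Fasl (0.70 ± 0.22, adjusted p = 0.0440). The Fasl call was lost in 6 of 8 alternative settings, among them leaving out Eµ-PRMT5 spleen 2 (0.68) or 3 (0.32) and DESeq2 (adjusted p = 0.120), with differences of 0.11 to 1.22 over all 8. The Cd4 T cells of these spleens held 2 UMIs of Gzmm in all, so its fitted size rests on few counts, and the ratio of summed levels was 71.1 (exact counting interval 19.6 to 588). Gzmk differed by -0.22 (adjusted p = 0.706), Klrg1 by -1.45 (adjusted p = 0.112) and Ifng by -1.26 (adjusted p = 0.0507).

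Further tissues with at least 20 cells of both kinds gave other values for several genes (the set of 8 spleens was chosen after the data were seen). Over 8 spleens of all 3 genotypes 5 genes passed, where 23.6% of 8724 genes did. Gzmm (5.74) and Ctsw (1.88) were again higher in Cd8 T cells, in 8 of 8 spleens each, while Gzmk (-1.52, adjusted p = 0.0116), Klrg1 (-1.91, adjusted p = 0.00453) and Ifng (-1.09, adjusted p = 0.0204) were lower. Nkg7, Gzmb and Prf1 differed by 0.04, -0.38 and 0.67 there and did not pass. Over 6 lymph nodes 7 genes passed, where 23.7% of 7758 genes did, with Gzmm (4.42) and Ctsw (2.08) higher in Cd8 T cells and Klrg1 (-4.16), Gzmk (-3.68), Gzmb (-2.45), Ifng (-2.23) and Nkg7 (-0.66) lower, while Prf1 (0.51, adjusted p = 0.340) did not pass. For both Gzmb and Nkg7 the Cd8 T level was the higher one in the 3 Eµ-PRMT5 spleens, the lower one in the other 5 of the 8 spleens and the lower one in 5 of 6 nodes, so that both orders were found within the spleen. In Eµ-TCL1 spleen 1 Gzmb stood at 91.4 CPM in Cd8 T and 323 CPM in Cd4 T cells and Nkg7 at 585 and 1661 CPM, and in Eµ-PRMT5/TCL1 spleens 1 to 4 Gzmb stood at 99.3, 63.3, 71.7 and 963 CPM in Cd8 T and at 489, 116, 154 and 1144 CPM in Cd4 T cells. The difference between genotypes in this contrast was not tested. Ifng was higher in Cd4 than in Cd8 T cells in 8 of 8 spleens and 6 of 6 nodes, and Gzmk in 7 of 8 spleens and 6 of 6 nodes.

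**Figure D3:**
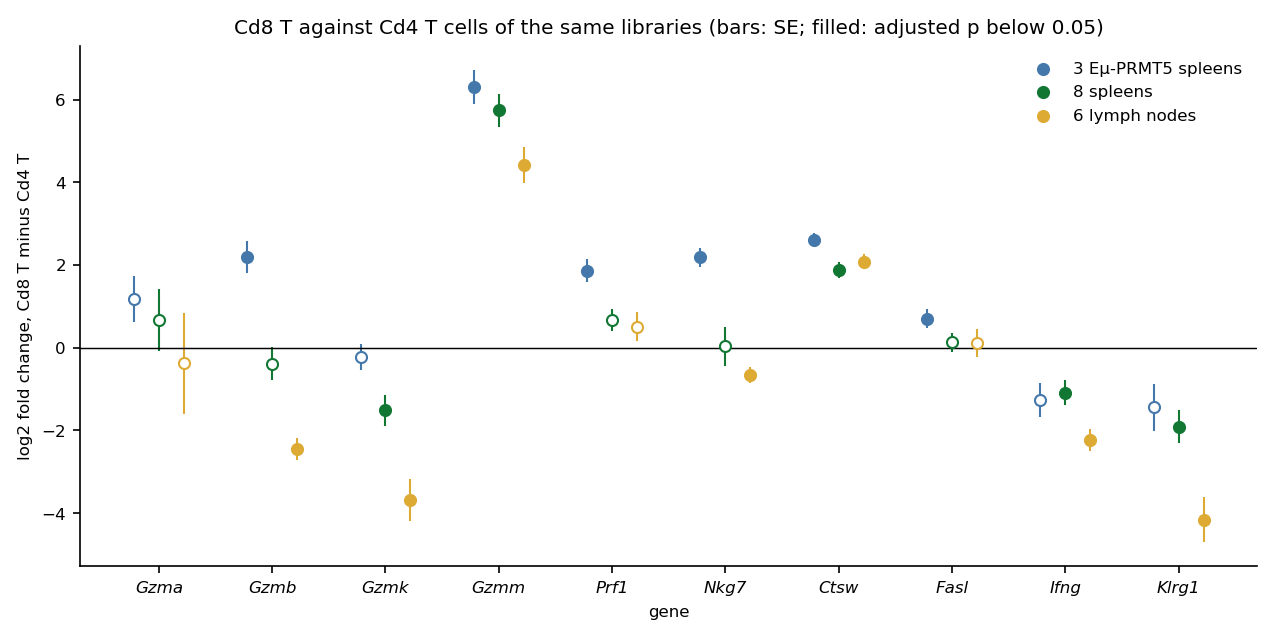
Points are the log2 fold change of Cd8 T minus Cd4 T cells (vertical axis) of each gene (horizontal axis), with SE bars, in the 3 Eµ-PRMT5 spleens, in 8 spleens and in 6 lymph nodes, filled where the adjusted p was below 0.05 and open where it was not. Gzmm and Ctsw lie above 0 and filled in all 3 sets, while Gzmb goes from 2.19 in the 3 Eµ-PRMT5 spleens to -2.45 in the lymph nodes.

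The related genes differed between the 2 kinds of T cell as well. In the 3 Eµ-PRMT5 spleens 6 of 7 inhibitory receptor genes and Tox were lower in Cd8 than in Cd4 T cells, among them Lag3 (-4.48), Ctla4 (-3.89) and Pdcd1 (-3.07), which encode checkpoint receptors, and Tox (-2.41). Of the 7 naive and quiescence genes 6 were higher in Cd8 T cells, among them Lef1 (1.32), a transcription factor of naive T cells, Tcf7 (1.03) and Klf2 (0.74), and S1pr1 (-0.39) was lower. Of 6 chemokine and ligand genes Ccl5 (2.74) and Xcl1 (1.48) were higher in Cd8 T cells and Tnf (-1.10), the tumour necrosis factor gene, was lower. Of 6 transcription factors Eomes (1.70) was higher while Bhlhe40 (-2.01), Zeb2 (-1.19) and Id2 (-0.87) were lower. Of 10 granule and release genes Serpinb9 (0.91) and Cst7 (0.73) were higher, while Stx11 (-2.07), a syntaxin of granule release, Rab27a (-0.84) and Srgn (-0.39), the granule proteoglycan serglycin, were lower. S1pr1 and Rab27a were named after their values were seen. Over the 8 spleens, 6 of 7 inhibitory receptor genes and Tox were lower, and 5 of 7 naive and quiescence genes were higher and 0 lower. Of 7 ligands 2 were higher and 1 lower, of 7 transcription factors 1 and 5, and of 10 granule genes 1 and 4. Some differences were smaller there, as for Ccl5 (1.27), Bhlhe40 (-1.19) and Pdcd1 (-1.91), and others larger, as for Tcf7 (1.86).

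The number of the 10 genes detected per cell at 1000 UMIs differed between the kinds of cell. In Cd8 T cells of the Eµ-PRMT5 spleens a median of 58.7% had at least 1 of the 10 genes and 20.3% at least 2, while in NK cells 85.0% had at least 1 and 65.0% at least 2. At least 4 of the genes were found in 25 to 50% of NK cells, in 0 to 25% of Cd8 T cells and in 0 to 21.9% of Cd4 T cells of a library, with the top values of the T cells in Eµ-PRMT5 spleen 4 (Cd8 T) and Eµ-PRMT5/TCL1 spleen 4 (Cd4 T). The most often detected genes in Cd8 T cells over 20 libraries were Ctsw (median share 31.3%, range 14.9 to 48.6%) and Nkg7 (26.7%, 11.8 to 90.6%), followed by Gzmm (7.41%, 0 to 22.7%), Fasl (6.50%), Gzmk (4.91%, 0.142 to 50%) and Gzmb (3.64%, 0.115 to 71.9%). Gzma (0.901%), Ifng (0.862%) and Klrg1 (0.117%) were found in few Cd8 T cells. In Cd4 T cells over 14 libraries the order began with Gzmk (45.0%, 5.81 to 64.2%) and Nkg7 (42.7%, 1.72 to 74.0%), and the median share of Gzmm was 0. The ranges of neighbouring genes in these orders overlapped, so that the order is that of the medians alone.

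Co-detection separated the genes in Cd8 T cells. Among libraries with enough positive cells, Cd8 T cells with Gzmk had Nkg7 in a median of 64.3% against 25.5% of the other Cd8 T cells, higher in 10 of 10 libraries. Gzmm went the opposite way, with medians of 0% and 8.98%, and was higher in Gzmk-positive cells in 0 of 10 libraries. Cd8 T cells with Gzmb had Gzmk in a median of 36.7% against 6.65%, higher in 9 of 9 libraries. In Cd4 T cells with Gzmk, Nkg7 was found in 70.2% against 40.6%, higher in 6 of 6 libraries. These are descriptions, since cells of 1 library share their source and their free RNA.

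The question of whether the transgene of the mouse went with the cytotoxic genes was put first to Cd8 T cells of the spleen. Gzma stood at 18, 11.9, 5.16, 63.4 and 13.3 CPM in Eµ-PRMT5 spleens 1 to 5, at 38.1, 8.21, 11.4 and 8.60 CPM in Eµ-TCL1 spleens 1 to 4 and at 85.5, 107, 23.2 and 92.7 CPM in Eµ-PRMT5/TCL1 spleens 1 to 4. Eµ-PRMT5/TCL1 spleen 3 lay within the range of both single transgenic groups, and the other 3 lay above every Eµ-TCL1 spleen. Gzmb stood at 10.9, 81.2, 24.8, 3037 and 69.3 CPM, 91.4, 33.5, 203 and 8.60 CPM and 99.3, 63.3, 71.7 and 963 CPM in the same order of groups. Eµ-PRMT5 spleen 4, which had 32 Cd8 T cells, and Eµ-PRMT5/TCL1 spleen 4 stood far above the rest of their groups. Gzmk, the granzyme of memory-like T cells, stood at 128, 97.4, 71.9, 424 and 2.26 CPM, 121, 44.8, 18.7 and 10.3 CPM and 87.8, 195, 172 and 849.9 CPM, and here too the groups overlapped, with the same 2 spleens on top. Perforin stood at 24, 38.2, 29.1, 223 and 38.2 CPM, 31.6, 18.1, 32.4 and 19.8 CPM and 16.2, 16.5, 23.8 and 89.8 CPM. Apart from those 2 spleens no library passed 38.2 CPM of Prf1, and all 3 groups overlapped.

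The other 6 genes overlapped between the spleen groups in the same manner, except for Klrg1. Nkg7 ranged over 149.6 to 1954 CPM in the Eµ-PRMT5 group, 224 to 585 CPM in the Eµ-TCL1 group and 316.5 to 1119.5 CPM in the double transgenic group. Gzmm ranged over 5.07 to 286 CPM, 29.5 to 96.8 CPM and 65.6 to 127 CPM in the same order, with its lowest value in Eµ-PRMT5 spleen 4, where the other granzymes were the highest of the group. Ctsw ranged over 139.5 to 401 CPM, 242 to 414 CPM and 213 to 622 CPM, and it too was lowest in that spleen. Of the effector molecules outside the granule, Fasl ranged over 43.1 to 159 CPM, 60.8 to 97.1 CPM and 41.8 to 280.3 CPM. Ifng ranged over 8.12 to 152 CPM, 2.01 to 36.7 CPM and 0 to 54.0 CPM. Klrg1 ranged over 0.310 to 112 CPM, 0.120 to 2.95 CPM and 3.99 to 53.6 CPM. It was the 1 gene of the 10 whose Eµ-PRMT5/TCL1 and Eµ-TCL1 spleens did not overlap, as was so for 7.18% of all genes tested. This separation is narrow, since the 4.62 CPM of Eµ-PRMT5/TCL1 spleen 1, with 74 Cd8 T cells, comes from few UMIs. None of the 10 was free of overlap between Eµ-PRMT5 and either other group of spleens, where 2.91% of genes (against Eµ-TCL1) and 0.984% (against Eµ-PRMT5/TCL1) were.

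None of the 10 genes passed the test in any of the 3 spleen comparisons, any 2 of which share 1 group of spleens. For Eµ-PRMT5 against Eµ-TCL1, 0 of 10 genes passed where 0.0398% of 10062 genes did, 1 gene had an unadjusted p under 0.05 (Klrg1, 3.83 ± 1.66), as did 5.28% of all genes, and DESeq2 called 0. For Eµ-PRMT5/TCL1 against Eµ-TCL1, 0 of 10 passed where 0% of 10062 genes did, 3 had an unadjusted p under 0.05, as did 8.06% of all genes, and DESeq2 called 0. Those 3 were Gzma (2.06 ± 0.68), Gzmk (2.46 ± 1.08) and Klrg1 (3.60 ± 1.60). For Eµ-PRMT5/TCL1 against Eµ-PRMT5, 0 of 10 passed where 0% of 10062 genes did, Gzma (2.04 ± 0.67) had an unadjusted p under 0.05, as did 4.63% of all genes, and DESeq2 called 0. Median differences of the 10 genes were 1.11, 0.87 and -0.22 on the log2 scale in these comparisons, against 0.01, -0.01 and -0.01 over all genes. The counts of called genes stayed at 0 without any 1 of the 13 spleens. The SEs, which were derived from each difference and its test statistic, were 0.67 to 1.66 for the genes named here. With 4 or 5 mice per group, differences as large as those named could thus fail to pass.

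In Cd8 T cells of lymph nodes Gzma came nearest to passing. Gzma stood at 3.34, 0.617 and 1.65 CPM in Eµ-TCL1 nodes 1 to 3 and at 75.7, 37.1, 27.7 and 82.8 CPM in Eµ-PRMT5/TCL1 nodes 1 to 4. The values of Eµ-TCL1 nodes 2 and 3 and of Eµ-PRMT5/TCL1 node 1 come from few UMIs. The groups did not overlap, and the difference was 4.77 ± 0.57 on the log2 scale, yet its adjusted p of 0.0523 (edgeR's quasi-likelihood test) did not pass. Nkg7 stood at 304, 229.7 and 315 CPM against 1114, 329, 458 and 591 CPM and Ctsw at 584, 602 and 467 CPM against 422, 379, 435 and 263 CPM. Gzmb ranged over 1.23 to 12.8 CPM against 10.8 to 85.3 CPM and Gzmk over 2.88 to 43.6 CPM against 23.3 to 1303 CPM. Gzma, Nkg7 and Klrg1 did not overlap in one direction and Ctsw in the other, where 10.3% of 10070 genes did not overlap. Klrg1 stood at 0.129, 0.771 and 0 CPM in Eµ-TCL1 nodes 1 to 3, from few UMIs or none. None of the 10 genes passed, where 0% of 10070 genes passed, 6 of the 10 and 15.1% of all genes had an unadjusted p under 0.05, and DESeq2 called 3 of the 10 and 0.536% of all genes. The 6 were Gzma, Gzmb (3.67 ± 0.88), Klrg1 (3.48 ± 1.07), Gzmk (3.33 ± 1.36), Nkg7 (1.12 ± 0.29) and Fasl (1.10 ± 0.38), with adjusted p-values of 0.0523 to 0.295. Gzma passed in 6 of 16 alternative settings, with a difference between 4.19 and 5.94 in all of them. Of the related genes, 0 passed, with 5 of 7 inhibitory receptor genes and Tox (median difference 2.16) and 5 of 10 granule genes (0.56) at an unadjusted p under 0.05, to be read against the same 15.1%. Eµ-PRMT5/TCL1 node 1 had 30 Cd8 T cells and the highest Gzmk level in Cd8 T cells, 1303 CPM, of the 20 libraries.

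The same mice allowed nodes to be set against spleens in Cd8 T cells, with the mouse as a block (3 Eµ-TCL1 and 4 Eµ-PRMT5/TCL1 mice). Gzma went from 38.1 CPM in the spleen to 3.34 CPM in the node of the first Eµ-TCL1 mouse, from 8.21 to 0.617 CPM in the next and from 8.60 to 1.65 CPM in the last. The node values of 0.617 and 1.65 CPM come from few UMIs. In Eµ-PRMT5/TCL1 mice it went from 92.7 to 75.7 CPM, from 85.5 to 37.1 CPM, from 23.2 to 27.7 CPM and from 107 to 82.8 CPM, so that 3 of 4 were lower in the node. Averaged over the 2 genotypes with equal weight, the difference was -1.75 ± 0.23 (adjusted p = 0.0329, edgeR's quasi-likelihood test). Gzma was the 1 gene of the 10 that passed, where 0.242% of 10310 genes did. The Gzma difference was -3.38 ± 0.38 in Eµ-TCL1 mice (adjusted p = 0.0506) and -0.13 ± 0.25 in Eµ-PRMT5/TCL1 mice (adjusted p = 0.971), so the average lay away from the fitted value of either genotype. The difference between the genotypes, 3.26 ± 0.45, had an adjusted p of 0.324, with 0 of 10 genes called where 0% of 10310 were, 2 with an unadjusted p under 0.05 (2.04% of all genes), and 1 called by DESeq2 (1 of all genes). The call of Gzma was kept in 8 of 15 alternative settings, with adjusted p-values of up to 0.297 and differences of -1.92 to -1.42. It was lost without the mouse of Eµ-PRMT5/TCL1 spleen 2, of Eµ-TCL1 spleen 1 or of Eµ-TCL1 spleen 2.

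Summed markers of other cells had lower medians in the nodes in these Cd8 T cells, with ranges that overlapped between the tissues. The NK markers had medians of 262 CPM in the 4 Eµ-TCL1 spleens and 91.9 CPM in the 3 nodes, and of 226 and 94.1 CPM in Eµ-PRMT5/TCL1 mice, with Ncr1 at no more than 1.03 CPM in any library. The 4 Eµ-TCL1 spleens include spleen 3, whose mouse gave no node and was not in the paired fit. The monocyte and macrophage markers had medians of 327 and 4.01 CPM, and of 515 and 17.4 CPM, and the neutrophil markers of 1180.2 and 0.154 CPM, and of 2566 and 0.674 CPM. Among cells with no UMI of a monocyte or macrophage marker the Gzma difference was -1.92 (adjusted p = 0.0510). The part of NK cells and neutrophils in it was not tested.

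None of the other 9 genes passed, and 2 of the 10 differences were above 0, that is towards the node. Gzmk was lower in the node in 3 of 3 and 3 of 4 mice (-1.35, adjusted p = 0.149), Klrg1 in 3 of 3 and 4 of 4 (-1.81, adjusted p = 0.174), Fasl in 3 of 3 and 4 of 4 (-0.57, adjusted p = 0.310) and Gzmb in 2 of 3 and 3 of 4 (-2.47, adjusted p = 0.290). The count for Fasl includes Eµ-PRMT5/TCL1 mice with almost no change, from 73.9 to 73.7 CPM and from 41.8 to 40.8 CPM. Ctsw was lower in 0 of 3 and 1 of 4 mice (0.45, adjusted p = 0.375). The median difference of the 10 genes was -0.57, against -0.0031 over all genes. Of the related lists, 1 of 7 inhibitory receptor genes and Tox passed, Entpd1 (-2.33 ± 0.36, adjusted p = 0.0419), the ectoenzyme CD39, and 6 of those 7 had an unadjusted p under 0.05, as did 11.8% of all genes.

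**Figure D4:**
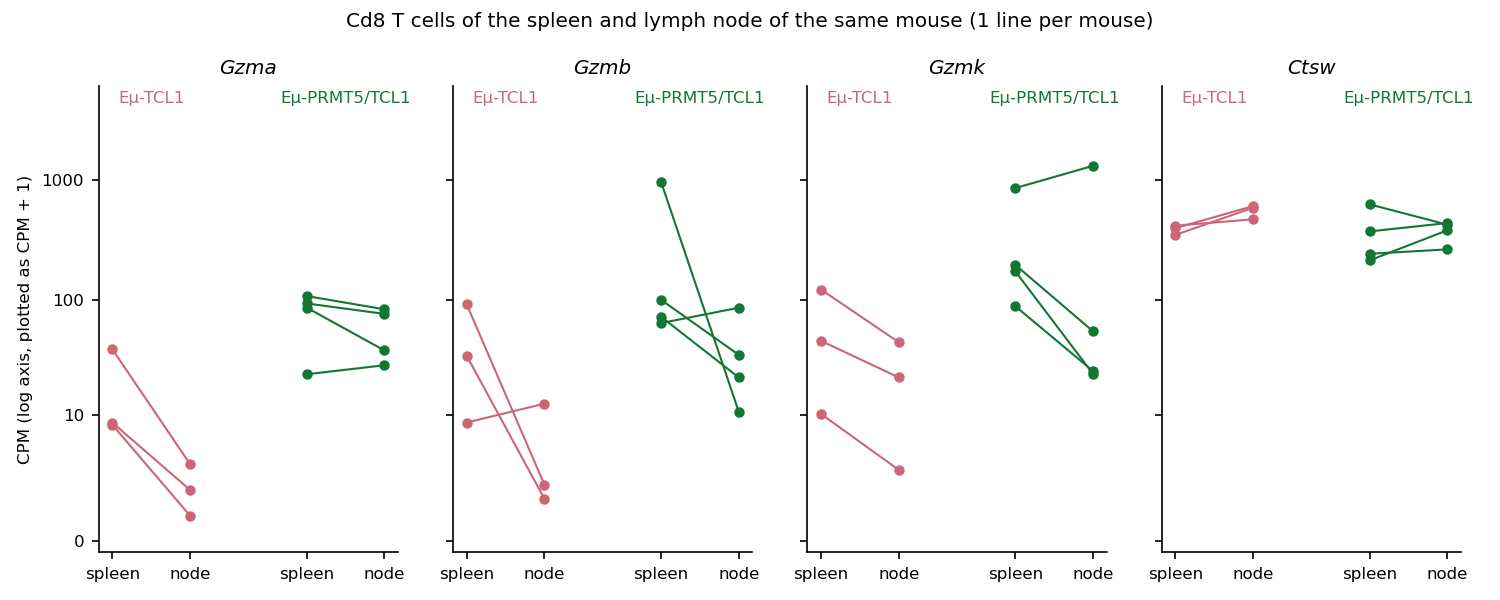
Lines join the spleen and lymph node of 1 mouse (horizontal axis, 3 Eµ-TCL1 and 4 Eµ-PRMT5/TCL1 mice), with the level in Cd8 T cells as CPM + 1 on a log axis, in panels for Gzma, Gzmb, Gzmk and Ctsw. Gzma lines fall in 3 of 3 Eµ-TCL1 mice, by -3.38 on the log2 scale in the fit, and in 3 of 4 Eµ-PRMT5/TCL1 mice, where the fit gave -0.13.

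Cd4 T cells gave the genotype differences that passed the test. In the spleen, Nkg7 stood at 1558, 1314, 919.8 and 1165 CPM in Eµ-PRMT5/TCL1 spleens 1 to 4 and at 66.9, 159.6 and 30.7 CPM in Eµ-PRMT5 spleens 1 to 3. Every double transgenic spleen was above each of these 3 Eµ-PRMT5 spleens, the ones with at least 20 Cd4 T cells. Gzmb stood at 489, 116, 154 and 1144 CPM against 3.60, 4.20 and 11.2 CPM, the latter from 5, 1 and 8 UMIs, and Gzmk stood at 438, 989.9, 1206 and 1638 CPM against 72.7, 273 and 152 CPM. Again the groups were apart among libraries with at least 20 Cd4 T cells, with the top values of Gzmb and Gzmk in Eµ-PRMT5/TCL1 spleen 4. Eµ-PRMT5 spleens 4 and 5, with fewer Cd4 T cells, lay within the double transgenic range of Nkg7 and Gzmk, as given below. Nkg7 was 3.94 ± 0.53 higher (adjusted p = 0.00517), Gzmb 6.08 ± 0.88 higher (adjusted p = 0.00682) and Gzmk 2.71 ± 0.50 higher (adjusted p = 0.0180) by edgeR's quasi-likelihood test. These were 3 of the 10 genes, where 3.57% of 8903 genes passed, and 0 were lower. The median difference of the 10 genes was 2.23 and that of all genes -0.04, 8 of the 10 and 20.2% of all genes had an unadjusted p under 0.05, and DESeq2 called 4 of the 10 and 4.44% of all genes. Prf1 (2.19, adjusted p = 0.0572), Gzma (1.71, adjusted p = 0.0724) and Klrg1 (2.26, adjusted p = 0.110) did not pass, though Prf1 and Gzma did not overlap between the groups, as was so for 16.5% of all genes.

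The share of Cd4 T cells with these genes moved with the levels. Among Cd4 T cells of Eµ-PRMT5/TCL1 spleens a median of 84.7% had at least 1 of the 10 genes and 59.3% at least 2, against 19.9% and 7.47% in the 3 Eµ-PRMT5 spleens. The Gzmb share was 10.7 to 35.6% against 0 to 1.72%, where the lowest value was 0 of 46 cells, which by a limit of 3 counts allows up to 6.52% of cells with a UMI at this depth. Of the related lists, 1 of 10 granule genes was higher (Cst7, 1.54, an inhibitor of cathepsins in granules), 1 of 6 ligands (Ccl3, 4.86), 1 of 7 transcription factors (Eomes, 1.65) and 2 of 7 inhibitory receptor genes (Havcr2, 1.90, and Entpd1, 1.88). Of 7 naive and quiescence genes 4 were lower and 0 higher, namely Il7r (-2.92), Tcf7 (-2.0), S1pr1 (-1.59) and Klf2 (-1.17). None of these calls held with at least 5 cells per library, where Ctsc (2.40) was the 1 gene of the 5 lists that passed.

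The Cd4 T result rests on few cells. Eµ-PRMT5 spleens 1 to 3 held 241, 46 and 174 Cd4 T cells and Eµ-PRMT5/TCL1 spleens 27, 127, 28 and 146. Eµ-PRMT5 spleens 4 and 5, with 6 and 14 Cd4 T cells and so not compared, stood at 1490 and 1069 CPM for Nkg7 and 830 and 569 CPM for Gzmk, which is in the range of the double transgenic group. When they were added with all libraries of at least 5 cells, chosen after the data were seen, 0 of 8 tested genes passed, where 0.908% of 4955 genes did. The differences fell in that setting, to 1.23 for Nkg7, 1.81 for Gzmb and 1.56 for Gzmk. Without Eµ-PRMT5 spleen 1 the count was 0 at differences of 3.83, 5.63 and 2.35, and over all spleens left out in turn they were 3.5 to 4.59, 5.23 to 6.78 and 2.35 to 3.20. The count was 5 when cells with a UMI of Lyz2, Csf1r, Cd14 or C1qa were left out. The summed level of the monocyte and macrophage markers in these Cd4 T cells was 630, 0 and 14 CPM in the Eµ-PRMT5 and 122, 3296, 4198 and 334 CPM in the Eµ-PRMT5/TCL1 spleens. That of the NK markers was 373, 79.8 and 124 CPM against 251, 1447, 998 and 54.9 CPM, with Ncr1 at no more than 2.79 CPM, and that of the neutrophil markers 258, 25.2 and 57.2 CPM against 0, 6354, 165 and 31.6 CPM. The part of NK cells and neutrophils in the result was not tested.

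Only Eµ-TCL1 spleen 1 had at least 20 Cd4 T cells in its group, 776 in all. There Gzma stood at 567 CPM (24.1% of cells, 95% interval 21.1 to 27.3%), Gzmb at 323, Gzmk at 1280 and Nkg7 at 1661 CPM. The node of the same mouse held 256 Cd4 T cells with Gzma at 567 CPM as well (18.8% of cells, 14.2 to 24.1%). Every other Cd4 T library with at least 20 cells had Gzma at 47.3 CPM or less, so that this mouse stood alone, and at this setting the Eµ-TCL1 spleens were not tested against other spleens. With at least 5 cells per library, Eµ-PRMT5 against Eµ-TCL1 gave 0 of 8 genes called (0.444% of 4955 genes, 2 of the 8 and 9.0% of all genes with an unadjusted p under 0.05). Likewise Eµ-PRMT5/TCL1 against Eµ-TCL1 gave 0 of 8 (0% of 4955 genes, 0 of the 8 and 5.41% of all genes under an unadjusted p of 0.05), and DESeq2 was not run at that setting. Of the related genes, Lag3 passed there as lower in Eµ-PRMT5 than in Eµ-TCL1 spleens (-2.58).

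In lymph nodes, Cd4 T cells of 4 Eµ-PRMT5/TCL1 mice were set against those of 2 Eµ-TCL1 mice. Eµ-PRMT5/TCL1 nodes 1 to 4 held 20, 39, 97 and 188 Cd4 T cells, and Eµ-TCL1 nodes 1 and 2 held 256 and 32. Ifng stood at 63.1, 52.9, 71.5 and 73.0 CPM in Eµ-PRMT5/TCL1 nodes 1 to 4 and at 13.6 and 10.9 CPM in Eµ-TCL1 nodes 1 and 2. Fasl stood at 23.7, 135, 99.3 and 89.0 CPM against 13 and 16.4 CPM, and Nkg7 at 1152, 1082, 1265 and 1813 CPM against 465 and 207 CPM. The Fasl value of Eµ-PRMT5/TCL1 node 1 and the Ifng and Fasl values of Eµ-TCL1 node 2 come from few UMIs. For Ifng, Fasl and Nkg7, and for Gzmb and Prf1, every double transgenic node was above both Eµ-TCL1 nodes, and 19.1% of the genes tested did not overlap in either direction. The Prf1 value of Eµ-PRMT5/TCL1 node 1 and the Gzmb and Prf1 values of Eµ-TCL1 node 2 rest on few UMIs or none. Ifng was 2.47 ± 0.37 higher (adjusted p = 0.0147), Nkg7 2.06 ± 0.35 higher (adjusted p = 0.0283) and Fasl 2.85 ± 0.51 higher (adjusted p = 0.0384) by edgeR's quasi-likelihood test, making 3 of 8 genes tested where 0.341% of 5864 genes passed. DESeq2 called 3 as well, and 0.648% of all genes. Gzmb (3.09, adjusted p = 0.0722) and Gzma (-3.81, adjusted p = 0.0730) did not pass, the latter with 1 Eµ-TCL1 node at 567 CPM and the other at 5.46 CPM. Gzmk, at 487 to 1546 CPM against 1429 and 371 CPM, differed by 0.14 (adjusted p = 0.940). Of the related genes Klf2, a factor of quiescent T cells, was lower (-1.52, adjusted p = 0.0431), a call that was lost with at least 5 cells per library. The count of 3 became 0 without Eµ-PRMT5/TCL1 node 3 or node 4 and 6 without node 1, and it was 0 when Eµ-TCL1 node 3, with 8 Cd4 T cells, was included. With 1 node left out in turn the differences were 2.33 to 2.67 for Ifng, 2.53 to 3.07 for Fasl and 1.66 to 2.77 for Nkg7. The summed NK markers of these Cd4 T cells were at 0 to 38.5 CPM in Eµ-PRMT5/TCL1 nodes and at 101.2 and 797 CPM in Eµ-TCL1 nodes, and the monocyte and macrophage markers at 0 to 129 CPM and at 62.7 and 3139 CPM, and their part in the result was not tested.

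Nodes against spleens of the same mice in Cd4 T cells gave 0 of 10 genes (1 Eµ-TCL1 and 4 Eµ-PRMT5/TCL1 mice), where 0.548% of 8934 genes passed, 5 of the 10 and 4.99% of all genes had an unadjusted p under 0.05, and DESeq2 called 0 of the 10. Those 5 were Fasl (-1.61), Gzmb (-1.96), Nkg7 (-0.89), Ifng (-0.89) and Prf1 (-1.10). Both genotypes had equal weight in these differences, so the 1 Eµ-TCL1 mouse counted as much as the 4 Eµ-PRMT5/TCL1 mice together. This holds for Zeb2 over both genotypes below as well. In that 1 mouse the log2 differences of CPM + 1 were -2.55, -3.17, -1.83, -1.72 and -1.67 in the same order. In the Eµ-PRMT5/TCL1 mice alone the differences of the same genes lay between -0.59 and 0.18. The difference between genotypes gave 0 of 10 where 0.0336% of 8934 genes passed, with 3 of the 10 and 3.29% of all genes under an unadjusted p of 0.05 and 0 of the 10 called by DESeq2, and only 1 Eµ-TCL1 mouse entered it, so that the spread came from the Eµ-PRMT5/TCL1 mice and the lone mouse is assumed to vary like them. Of the related genes Zeb2, a factor of terminal effector cells, was lower in nodes (-2.11, adjusted p = 0.0190), and by -3.13 in the Eµ-PRMT5/TCL1 mice alone (adjusted p = 0.00156). Zeb2 is also expressed by NK and myeloid cells, and in these Cd4 T cells the summed monocyte and macrophage markers were at 122 to 4198 CPM in Eµ-PRMT5/TCL1 spleens and at 0 to 129 CPM in their nodes, the NK markers at 54.9 to 1447 CPM and 0 to 38.5 CPM, and the neutrophil markers at 0 to 6354 CPM and 0 to 31.4 CPM. In Eµ-TCL1 mice the monocyte and macrophage markers were at 103 CPM in the 1 spleen and at 62.7 and 3139 CPM in the 2 nodes. The part of these cells in the result was not tested.

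**Figure D5:**
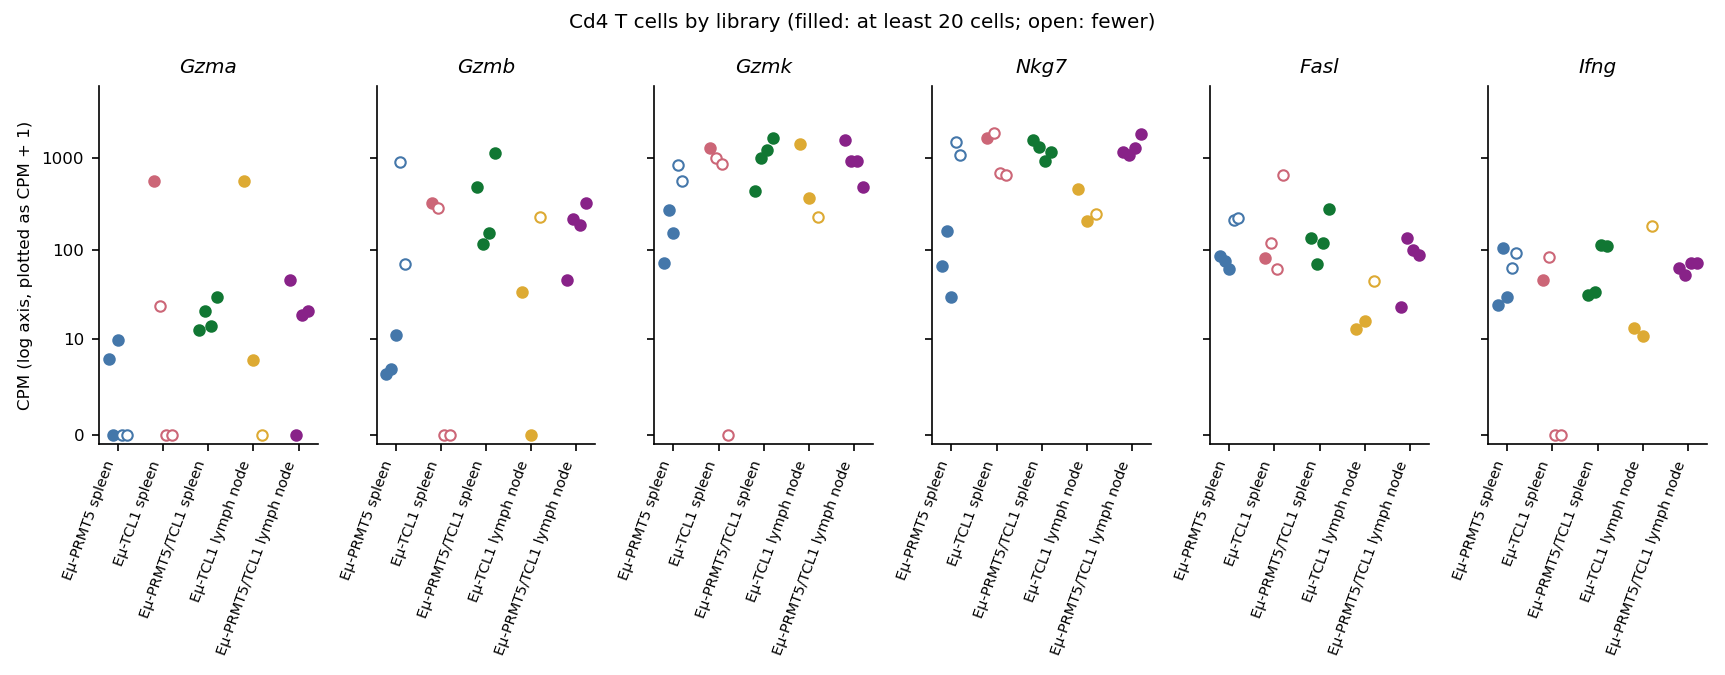
Points are the Cd4 T cells of every library by group (horizontal axis), as CPM + 1 on a log axis, filled for at least 20 cells and open for fewer, in panels for Gzma, Gzmb, Gzmk, Nkg7, Fasl and Ifng. The filled Eµ-PRMT5/TCL1 spleens lie at 920 to 1558 CPM for Nkg7 against 30.7 to 160 CPM in the filled Eµ-PRMT5 spleens, and the 2 high filled Gzma points, both 567 CPM, are the spleen and node of 1 Eµ-TCL1 mouse.

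NK cells could not be compared between genotypes or tissues, because no group other than the Eµ-PRMT5 spleens had a library with 20 of them. The other libraries held 0 to 14 NK cells each. The 14 NK cells of Eµ-PRMT5/TCL1 spleen 4 had Gzma at 3635 CPM, beside 3526 CPM in the highest of the 3 Eµ-PRMT5 spleens.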

How the data were processed

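The authors deposited whole-number UMI counts per gene and droplet barcode for each of the 20 libraries, not normalized and not filtered for cells, made with 10x Genomics 3′ v2 chemistry and Cell Ranger. The study's methods name version 2.0.1 (with Seurat 2.2.1), while the matrix headers name 3.1.0. The submitters' processing notes name the build GRCm38. Groups and the mouse that links a spleen to a node were taken from the labels.

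Barcodes counted as cells if they reached 0.1 of the 99th percentile of the top 3000 barcodes (1745 to 4399 UMIs) and had 200 or more genes and no more than 10% of UMIs from mitochondrial genes. The own cut of Scrublet marked 0 to 298 barcodes, so the expected number by score (0.8% per 1000 cells) was removed, 4 to 533 per library. Median depth was 3553 to 14285 UMIs per cell. Counts were summed per library and cell kind over libraries with at least 20 cells and tested with edgeR 4.0.16 (R 4.3.3), quasi-likelihood test, TMM factors, the default low count filter, and Benjamini-Hochberg adjustment over all genes tested at 0.05. An SE given with an edgeR difference is the size of that difference divided by the square root of its F statistic. Spleens of all genotypes shared 1 fit. Tissue comparisons held the mouse, and cell kind comparisons the library, as a block. Over both genotypes, a tissue difference was the average of the 2 genotypes with equal weight, whatever their number of mice. Mice link tissues by the labels; deviations of the 2 tissues of a mouse from their group means correlated at -0.166 to 0.299 in Cd8 T cells (7 pairs). DESeq2 1.42.0 was an alternative, and the others are given under the processing. The steps were tested on simulated counts. Python 3.11.15, scanpy 1.11.5, numpy 2.4.6, pandas 2.3.3, scipy 1.17.1 and matplotlib 3.10.9 were used.

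All 10 genes are named in every cell kind. Genes of 5 lists (granule and release, ligands and chemokines, effector transcription factors, naive and quiescence genes, inhibitory receptors and Tox) are named where they passed, at most the 4 with the smallest adjusted p per list and comparison (for Cd8 against Cd4 T cells, in the 3 Eµ-PRMT5 spleens), and 1 gene of these lists is not reported here. The genes, lists and comparisons were chosen with earlier results of these data known. Promoters are from RefSeq (GRCm38.p6), with an entry for 8 of the 10 genes and none printed for the rest.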

Additional observations from a re-analysis of the deposited data

Results flagged for a closer look

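In 60 groups of 4 or 5 libraries (Cd8 T and Cd4 T levels, 1 group per gene), 17 had a library far from the others by Dixon's criterion at 95%. The criterion would flag about 3 of 60 independent groups of normally spread values. These groups are genes of the same libraries on the CPM scale, so the number that chance gives here is not known. Most of the 17 came from 2 spleens.

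Eµ-PRMT5 spleen 4, with 32 Cd8 T cells, stood apart in its Cd8 T cells for 7 genes. Gzma was at 63.4 CPM (others 5.16 to 18), Gzmb at 3037 (10.9 to 81.2), Prf1 at 223 (24 to 38.2), Nkg7 at 1954 (149.6 to 599), Ifng at 152 (8.12 to 39.7) and Klrg1 at 112 (0.310 to 9.55). Ctsw was low in it, at 139.5 CPM (363 to 401).

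Eµ-PRMT5/TCL1 spleen 4, with 627 Cd8 T cells, stood apart for 5 genes. Gzmb was at 963 CPM (63.3 to 99.3), Gzmk at 849.9 (87.8 to 195), Fasl at 280.3 (41.8 to 73.9), Prf1 at 89.8 (16.2 to 23.8) and Klrg1 at 53.6 (3.99 to 5.25). The node of the same mouse, Eµ-PRMT5/TCL1 lymph node 1 with 30 Cd8 T cells, was high for Gzmk, at 1303 CPM (23.3 to 53.9), and Klrg1, at 32.4 CPM (1.09 to 3.81).

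Eµ-TCL1 spleen 1, with 669 Cd8 T cells, was high for Gzma at 38.1 CPM (8.21 to 11.4) and Ifng at 36.7 CPM (2.01 to 5.05). In Cd4 T cells, Gzmm was at 33.1 CPM in Eµ-PRMT5/TCL1 lymph node 3 and at 0 in the other 3 nodes of that group.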

How the results depend on the processing

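Over single gene tests, 177 results under the alternatives kept their call and direction, 49 lost the call and 3 turned: the Cd8 against Cd4 T difference of Gzmb was -2.45 in nodes and -0.38 in 8 spleens, and that of Nkg7 was -0.66 in nodes. Counts of called genes were as follows, and their causes were not tested. Cd8 T genotypes in nodes (0) gave 1 with RLE factors, 1 with no low count filter, 3 with DESeq2 and 1 with the replicate number as a block. Cd8 T nodes against spleens (1) gave 4 with no filter, 3 with DESeq2, 2 with at least 50 cells, and 0 with no replicate block, cells from 500 UMIs, a stricter gate or no myeloid UMI. The Cd8 T genotype difference of tissues (0) gave 1 with no filter and 1 with DESeq2. Cd4 T spleens, Eµ-PRMT5/TCL1 against Eµ-PRMT5 (3), gave 6 with no filter, 5 with no myeloid UMI, 1 with the stricter gate, and 0 with cells from 500 UMIs, at least 50 or at least 5 cells. Cd4 T nodes (3) gave 7 with no filter, 5 with the replicate block, 5 with Xist as a covariate and 0 with at least 5 cells. With no filter, Cd4 T tissues (0) gave 2 and their genotype difference (0) gave 1.

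Leaving out 1 mouse gave 0 to 0 in the Cd8 T spleen comparisons and the Cd8 T genotype difference of tissues, 0 to 2 in Cd8 T nodes (1 without Eµ-TCL1 node 1, 2 without node 3) and 0 to 2 in Cd8 T tissues (2 without the mouse of Eµ-PRMT5/TCL1 spleen 4). It gave 0 to 4 in Cd4 T spleens (0 without Eµ-PRMT5 spleen 1, 2 without spleen 3), 0 to 6 in Cd4 T nodes (2 without Eµ-PRMT5/TCL1 node 2, 1 without Eµ-TCL1 node 1), 0 to 3 in Cd4 T tissues and 0 to 4 in their genotype difference (3 and 4 without the mouse of Eµ-PRMT5/TCL1 spleen 4). It gave 5 to 8 for Cd8 against Cd4 T, 7 to 7 for NK against Cd8 T and 6 to 8 for NK against Cd4 T cells. Numbers shared across genotypes are not mice, and their deviations correlated at -0.396 to 0.535 in Cd8 T cells (6 of 15 pairs over 0.1) and at -0.0814 to 0.0569 in Cd4 T cells.

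Unthinned median shares were higher: in Cd8 T cells Gzmm 24.6, Prf1 11.6, Nkg7 65.9, Ctsw 79.9, Fasl 26.2 and Ifng 2.63%; in Cd4 T cells Gzmb 22.6, Prf1 10.7, Ctsw 40.5, Fasl 29.3, Ifng 13.1 and Klrg1 6.32%; in NK cells Gzma 65.0, Gzmb 45.0, Gzmk 8.0, Gzmm 3.13, Prf1 55.0, Nkg7 85.0, Ctsw 95, Fasl 60, Ifng 24 and Klrg1 20%. The stricter NK gate gave Gzma 72.0, Gzmk 12.0 and Prf1 36.0%. NK genotypes, NK tissues and NK cells of nodes could not be fitted, nor could Cd4 T nodes and tissues with the stricter gate or at least 50 cells. The settings of at least 5 cells, no myeloid UMI and 8 spleens were chosen after seeing the data. The depth of 2856.5 to 10953.5 median UMIs per Cd8 T cell and the 20 to 32 NK cells per library limit what can be seen.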

Other observations

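Some genes followed the members across mice. Over the Cd8 T sums of the 13 spleens, among 5577 genes of at least 20 CPM, the level most like that of Gzmk was Itga4 (r = 0.96), which encodes the alpha 4 integrin chain, and the checkpoint receptor Pdcd1 followed closely (r = 0.94). Prf1 was followed by Cst7 (r = 0.93), the granule cystatin. Gzmb was followed by Pgk1 (r = 0.94) and Eno1 (r = 0.93), enzymes of glycolysis, Gzma by Afg3l1, Ezh2 and the thymidylate synthase gene Tyms (r = 0.88 to 0.90), Nkg7 by Vim (r = 0.94), Ctsw by Nfx1 (r = 0.93), Gzmm by Rmnd5a (r = 0.93), Fasl by Abcb1a (r = 0.92) and Ifng by Ero1l (r = 0.91). These r values are descriptions over sums that share their library and depth, and the levels of several of these genes in 2 spleens stood far above the others. Klrg1 had a mean under 20 CPM and was not compared.

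The 4404 T cells with neither Cd4 nor Cd8 detected, which no comparison used, held 11.1% of the Gzma and 16.4% of the Klrg1 UMIs of the series, in 5.23% of the cells.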
